A study of Mus musculus with 4 samples.

Results

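The 10 genes described here present peptides to T cells on MHC molecules, and they were chosen by name: 6 of the class II pathway (Cd74, H2-Aa, H2-Ab1, H2-Eb1, H2-DMa and Ciita) and 4 of the class I pathway (B2m, H2-K1, H2-D1 and Tap1), of 55335 rows in the deposited table. Ptprc, which encodes the pan-leukocyte surface protein CD45, is shown beside them as a check for leukocytes. The libraries are bulk SMART-Seq2 RNA-seq, a PCR-amplified full-length cDNA method, of corpus stomach cells from C57BL/6 mice with the Iqgap3-2A-tdTomato reporter, aged 6 to 8 weeks. All 4 libraries come from DAPI-negative, EpCAM-sorted cells of reporter mice, and no treatment is named in the labels. IQ3pos denotes Iqgap3-high cells and IQ3neg Iqgap3-low or negative cells. In IQ3pos_1909A and IQ3neg_1909B the cells of 3 mice were pooled, and these are called the 3-mouse libraries. In IQ3pos_1910A and IQ3neg_1910B those of 4 mice were pooled, and these are called the 4-mouse libraries. The labels do not say whether the fractions of equal number came from the same mice.

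MHC class I molecules display peptides made inside the cell and occur on nearly all nucleated cells, as a heavy chain paired with beta-2 microglobulin. Class II molecules are alpha-beta pairs that display peptides taken up from outside; dendritic cells, macrophages and B cells make them constitutively, and many epithelia make them after exposure to interferon gamma. The class II transactivator CIITA and its class I counterpart NLRC5 act on a shared promoter module, in which an X box is followed at a fixed distance by an inverted CCAAT motif, the Y box.

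That module is shown first, because it is the feature that the 2 classes share at the DNA level. RefSeq promoter windows (GRCm38.p6, from 250 bases before to 50 after a gene's start) were examined for 7 of the 10 members, and none was examined for Cd74, H2-Ab1 and Ciita. The upstream 250 bases were searched on both strands for TGANG, a core of the X2 element, followed after 18 to 24 bases by ATTGG, the Y box. The pair was found for 5 of these 7 members, namely H2-Aa, H2-Eb1, B2m, H2-K1 and H2-D1, and not for H2-DMa or Tap1. Of all 32851 windows, 538 (1.64%) held it. ATTGG alone, in either orientation, was in 33.8% of windows and TGANG in 84.8%. A pair with a set order and spacing can be no more common than its cores. Whether 1.64% differs from what the core frequencies alone would give was not tested. Each stretch below is written 5′ to 3′ on the gene's own strand, with both cores in capitals and up to 25 bases on either side. For H2-D1 only the paired cores are given, since a GENCODE first exon covers them. A match describes the letters and does not show binding.

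H2-Aa (class II alpha chain, chr17:34287842-34287922, minus strand): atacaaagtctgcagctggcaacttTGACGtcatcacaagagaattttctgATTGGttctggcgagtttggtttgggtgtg
H2-Eb1 (class II beta chain, chr17:34305759-34305837, plus strand): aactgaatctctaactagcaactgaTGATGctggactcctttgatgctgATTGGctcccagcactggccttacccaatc
B2m (class I light chain, chr2:122147584-122147663, plus strand): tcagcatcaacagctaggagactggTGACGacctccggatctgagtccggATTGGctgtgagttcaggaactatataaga
H2-K1 (class I heavy chain, chr17:34000348-34000413, minus strand): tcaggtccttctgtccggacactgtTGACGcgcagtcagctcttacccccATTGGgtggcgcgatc
H2-D1 (class I heavy chain, chr17:35262993-35263022, plus strand): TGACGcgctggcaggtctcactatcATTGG

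The gap between the cores was 21 bases in H2-Aa, 19 in H2-Eb1 and 20 in B2m, H2-K1 and H2-D1. In H2-Eb1 and in H2-D1, 2 overlapping TGANG cores lie within the allowed distance of the same ATTGG, and the nearer one is capitalized. H2-Aa and H2-Eb1 of class II and B2m, H2-K1 and H2-D1 of class I thus share the pair, while their levels, given next, differed in opposite directions between the pools.

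Levels are given in CPM, the reads of a gene per 1000000 reads assigned to genes, and each CPM value could be turned back into whole reads. Depth ran from 90714929 to 418401262 reads per library, with the 3-mouse libraries the shallower. All 6 epithelial markers examined were above 1 CPM in every library, with Epcam between 205 and 517 CPM, while the 7 stromal and endothelial markers together gave 1.03 to 6.42 CPM. By edgeR, 3 of 4 pit cell, 1 of 3 mucous neck cell and 1 of 4 parietal cell genes were higher in IQ3pos, 3 of 7 chief cell and 5 of 6 enteroendocrine genes were lower, and 0 of 4 tuft cell genes passed. Of all genes that edgeR tested, 0.0654% were called higher and 0.226% lower. The 20 most abundant genes took 18.5% to 25.3% of reads in IQ3pos and 57.9% to 63.4% in IQ3neg. A CPM value is a part of the whole library. The median difference of all genes tested, IQ3pos minus IQ3neg in log2 units, was 0.68, and 0.04 once libraries were scaled by TMM, a factor for library composition. Differences between the fractions are therefore also given after TMM scaling.

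Cd74 encodes the invariant chain, which escorts class II molecules and fills their groove until peptide is loaded. It stood at 896 CPM in IQ3pos_1909A and 1359 CPM in IQ3neg_1909B, against 193 CPM in IQ3pos_1910A and 248 CPM in IQ3neg_1910B. Both 3-mouse libraries lay above both 4-mouse libraries, and within each pair IQ3neg was the higher. These values rest on 53857 to 156257 reads, so the counting error of reads is small beside the spread. Without molecular identifiers, the number of RNA molecules behind these reads is not known. Cd74 lies on chromosome 18 at 60803848 to 60812652 (GRCm38, GENCODE vM21).

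The class II chains gave the same order of libraries by pool. H2-Ab1, the beta chain of the I-A molecule (chromosome 17, 34257689 to 34269419), stood at 444 CPM in IQ3pos_1909A, 593 in IQ3neg_1909B, 121 in IQ3pos_1910A and 103 in IQ3neg_1910B. H2-Aa, its alpha partner (chromosome 17, 34282744 to 34287823), stood at 118, 144, 5.13 and 23.8 CPM in the same libraries. Both chains were several-fold higher in the 3-mouse libraries. The alpha chain was lowest in IQ3pos_1910A, also relative to its partner: H2-Aa CPM was 0.265, 0.243 and 0.232 of H2-Ab1 CPM in the other libraries and 0.0423 in that one. H2-Eb1, the beta chain of I-E, stood at 80.6, 108, 19.1 and 16.4 CPM in IQ3pos_1909A, IQ3neg_1909B, IQ3pos_1910A and IQ3neg_1910B. C57BL/6 mice are known to lack a working I-E alpha gene, and the row for that gene, H2-Ea-ps, had 0 reads in each of the 4 libraries, which allows up to 0.0331 CPM (3 reads) in the shallowest. H2-DMa, a chain of the peptide-loading catalyst H2-M, stood at 28.8, 12.8, 1.64 and 4.30 CPM in that order.

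Ciita, the transactivator that switches on class II genes, did not follow its targets. It stood at 0.441 CPM in IQ3pos_1909A (40 reads) and 1.31 CPM in IQ3pos_1910A (365 reads), but at 0.00869 CPM in IQ3neg_1909B (1 read) and 0.00478 CPM in IQ3neg_1910B (2 reads). The ratio of IQ3pos to IQ3neg was 50.7 in the 3-mouse libraries (95% exact interval from read counts, 8.60 to 2053) and 274 in the 4-mouse libraries (75.2 to 2267). These intervals cover counting error only, since PCR copies carry no molecular identifiers. Ciita was thus highest in IQ3pos_1910A, the library with the least Cd74. Fewer rows were above 0 in IQ3neg_1909B (21757) and IQ3neg_1910B (21823) than in IQ3pos_1909A (29724) and IQ3pos_1910A (30017). The part of this in the Ciita ratios was not tested. Among genes averaging 1 CPM or more, 40.9% had both IQ3pos libraries above both IQ3neg libraries. The mean of Ciita was under this filter of 1 CPM, so limma did not test it. On recovered reads, edgeR's quasi-likelihood test gave an adjusted p of 0.298, and the DESeq2 Wald test an adjusted p of 0.0299. DESeq2 called 4.97% of the genes it tested as higher in IQ3pos and 9.64% as lower, and edgeR 0.0654% and 0.226%.

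**Figure D1:**
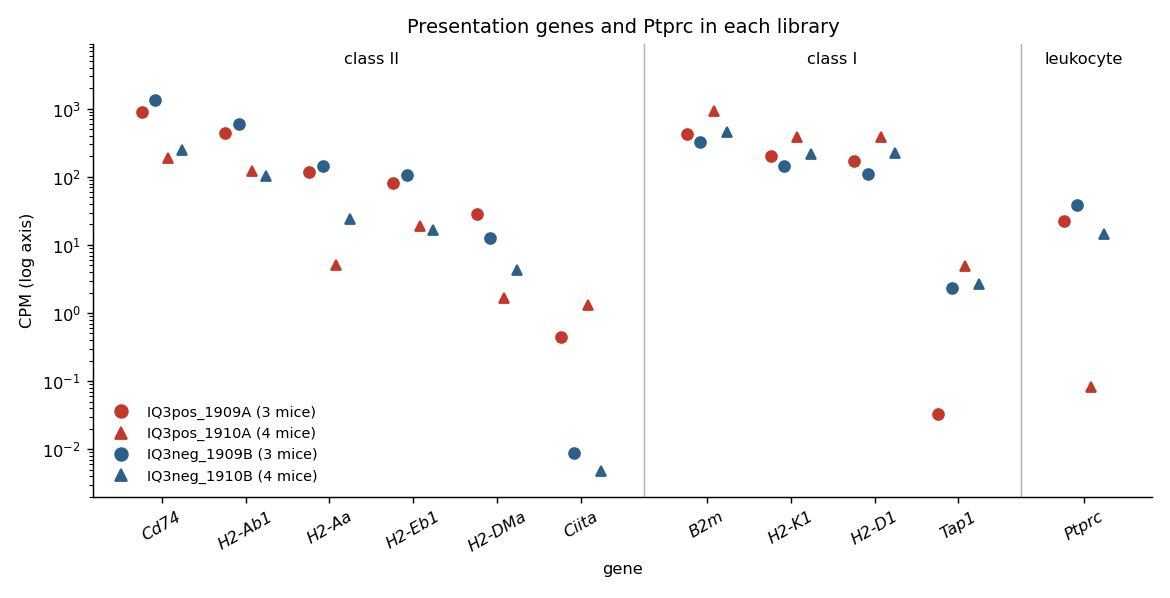
CPM of the 10 presentation genes and Ptprc on a log axis, 1 point per library, red for IQ3pos and blue for IQ3neg, circles for the 3-mouse pools and triangles for the 4-mouse pools. For Cd74, H2-Ab1, H2-Aa, H2-Eb1 and H2-DMa both circles lie above both triangles, for B2m, H2-K1, H2-D1 and Tap1 both triangles lie above both circles, and Ptprc is at 0.0824 CPM in IQ3pos_1910A.

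Class I genes ran the other way. B2m, encoding beta-2 microglobulin (chromosome 2, 122147686 to 122153083), stood at 434 CPM in IQ3pos_1909A, 325 in IQ3neg_1909B, 919.96 in IQ3pos_1910A and 458 in IQ3neg_1910B. H2-K1, a classical heavy chain gene (chromosome 17, 33996017 to 34000347), stood at 203, 144, 389.9 and 217 CPM in the same libraries. H2-D1, the other classical heavy chain gene (chromosome 17, 35262730 to 35267499), stood at 171, 112, 387 and 223 CPM. For each of these genes both 4-mouse libraries lay above both 3-mouse libraries, IQ3pos_1910A was the highest, and IQ3pos exceeded IQ3neg in each pair. After TMM scaling IQ3pos minus IQ3neg turned negative in the 3-mouse pair, at −0.52 for B2m, −0.44 for H2-K1 and −0.32 for H2-D1 in log2 units, and stayed positive in the 4-mouse pair, at 0.54, 0.38 and 0.33. Over the 4 libraries the highest value was 2.83 times the lowest for B2m, 2.701 for H2-K1 and 3.46 for H2-D1, against 7.04 for Cd74, 5.76 for H2-Ab1, 6.56 for H2-Eb1 and 28.1 for H2-Aa. The light chain kept step with the heavy chains: B2m CPM was 1.16, 1.27, 1.18 and 1.04 times the sum of H2-K1 and H2-D1 in IQ3pos_1909A, IQ3neg_1909B, IQ3pos_1910A and IQ3neg_1910B.

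Tap1, a subunit of the transporter that brings peptides into the endoplasmic reticulum, was scarce next to the molecules it supplies. It stood at 0.0331 CPM in IQ3pos_1909A (3 reads), 2.33 in IQ3neg_1909B, 4.97 in IQ3pos_1910A and 2.698 in IQ3neg_1910B. The ratio of IQ3pos_1910A to IQ3pos_1909A was 150.1 (95% exact interval 51.3 to 729). Its partner Tap2 was likewise at 0.0220 CPM in IQ3pos_1909A, against 1.71 to 3.06 CPM elsewhere.

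Levels of different genes were compared as CPM per kilobase of the longest protein-coding GENCODE transcript, averaged over the libraries. B2m was first at 622, followed by Cd74 (478), H2-Ab1 (260.1), H2-K1 (147), H2-D1 (106), H2-Aa (64.5), H2-Eb1 (33.5), H2-DMa (5.92), Tap1 (0.849) and Ciita (0.0733). This order hides the pools. Per kilobase, Cd74 exceeded B2m in the 3-mouse libraries (635 against 505 in IQ3pos_1909A and 964 against 378 in IQ3neg_1909B), while B2m exceeded Cd74 in the 4-mouse libraries (1070 against 137 in IQ3pos_1910A and 533 against 176 in IQ3neg_1910B). Neighbours H2-K1 and H2-D1 do not differ beyond their spread, and changed places when the length of all annotated exons was used (81.2 against 86.7 CPM per kilobase). In the transcript models, 8.79% of the 50-base stretches of H2-K1 and 14.3% of those of H2-D1 also occur in transcripts of other genes, so their reads may be divided unevenly. The share was 0.861% for Tap1 and 0 for the other 7 members.

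No member passed limma's test between the fractions, nor did any other gene: 0% of the 13019 genes tested were called in either direction at an adjusted p of 0.05. Before adjustment, p fell below 0.05 for 2373 genes with a positive difference (18.2%) and 648 with a negative one (4.98%), and 0 of the 9 members tested were among them. In the same fit without a pool term, on TMM-scaled CPM, limma called 0.137% of genes lower and 0% higher, again without a member. Called by edgeR on recovered reads were 11 genes higher and 38 lower, and no member was one of them. The fractions overlapped for each of these 9 members, whereas both IQ3pos libraries lay above both IQ3neg libraries for 40.9% of all genes and below them for 14.2%.

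The estimates of the members had wide intervals. Cd74 differed by −0.48 on the log2(CPM + 1) scale, IQ3pos minus IQ3neg, with a 95% limma interval of −3.00 to 2.04 (adjusted p = 0.794). After TMM scaling its difference was −1.18 (−3.55 to 1.19). The values for H2-Aa, H2-Ab1, H2-Eb1 and H2-DMa were −1.15, −0.09, −0.10 and 0.05 in CPM and −1.83, −0.79, −0.78 and −0.56 after TMM scaling. The median of the 5 class II genes tested was −0.78 relative to all genes, and it turned to 0.20 without IQ3neg_1909B and 0.25 without IQ3pos_1910A, each of which leaves the pools unevenly divided between the fractions. Within the 3-mouse pair this median was −1.13 and within the 4-mouse pair −0.93, in both cases relative to all genes. B2m differed by 0.71 (interval −0.36 to 1.77, limma adjusted p = 0.381), H2-K1 by 0.66 and H2-D1 by 0.70. These values lay close to the shift of the median gene, 0.68, and with TMM scaling they became 0.01, −0.03 and 0.00, so the intervals (−1.19 to 1.21 for B2m) still allow a difference of more than 2-fold either way. Tap1 differed by −0.50, a value that became 0.77 without IQ3pos_1909A.

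**Figure D2:**
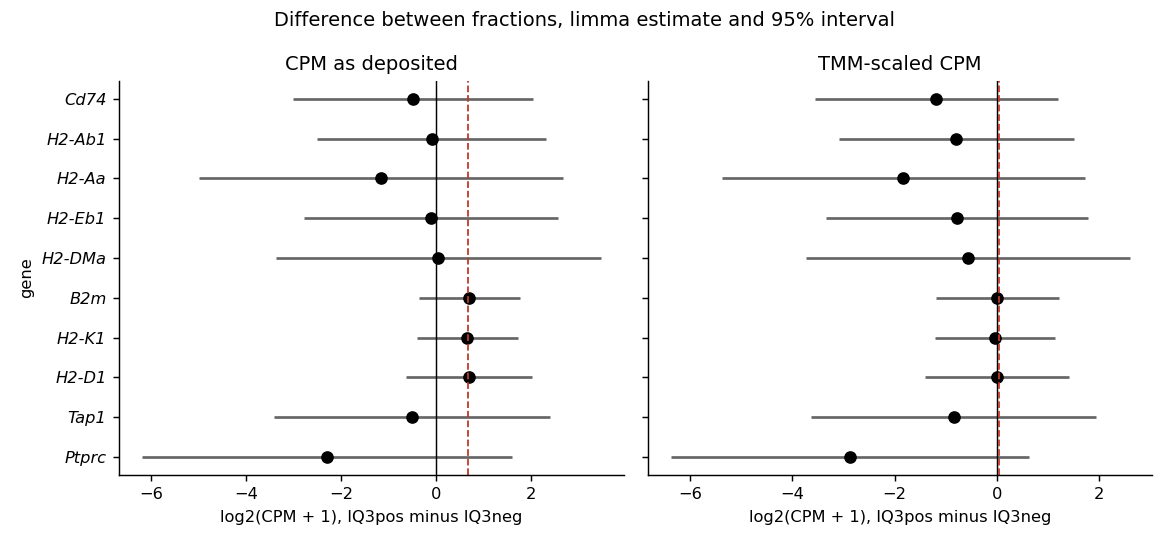
Limma estimates of the difference between fractions, IQ3pos minus IQ3neg, for 9 members and Ptprc, with 95% intervals as bars, in CPM as deposited (left) and after TMM scaling (right). The dashed red line is the median of all genes tested (0.68 and 0.04), and every interval includes 0.

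For the class II genes the estimated difference between pools exceeded that between fractions. Both 3-mouse libraries exceeded both 4-mouse libraries for 5 of 5 class II members tested, against 8.76% of all genes (9.89% after TMM scaling). The opposite order held for 4 of 4 class I members, against 17.6% of all genes (22.6% after TMM scaling, with the same 5 and 4 members). In a limma fit with fraction and pool as terms, chosen after seeing the data, Cd74 was 2.33 higher in the 3-mouse libraries on the log2 scale (SE 0.21, adjusted p = 0.0535), H2-Aa 3.41 (SE 0.54), H2-Ab1 2.19 (SE 0.27), H2-Eb1 2.33 (SE 0.44) and H2-DMa 2.44 (SE 0.997), where the median gene was −0.24 and 0.00768% of genes were called higher and 0% lower. After TMM scaling Cd74 (2.25, adjusted p = 0.00764), H2-Ab1 (2.11, adjusted p = 0.0391) and H2-Aa (3.32, adjusted p = 0.0428) passed limma's threshold, among 0.115% of genes called higher in the 3-mouse libraries and 0.0153% called lower. B2m differed by −0.79, H2-K1 by −0.76, H2-D1 by −1.08 and Tap1 by −1.34, and none passed (limma adjusted p = 0.553 to 0.720, and 0.273 to 0.719 after TMM scaling). This fit has 1 residual degree of freedom and leans on the spread shared across genes. The pools differ also in the number of mice and in depth, and these cannot be told apart from the pool. If fractions of equal number share their mice, each side of this contrast is 1 pool of mice, and its p-values then hold no spread between pools. Single epithelial genes differed between the pools too. Of 6 epithelial markers 1 (16.7%), and of 6 enteroendocrine genes 1 (16.7%), had both 4-mouse libraries higher, against 17.6% of all genes. The same order held for 1 of 7 chief cell (14.3%), 1 of 4 parietal cell (25%) and 2 of 3 mucous neck cell genes (66.7%). It held for 0 of 4 pit cell and 0 of 4 tuft cell genes, and no gene of these lists had the opposite order. After TMM scaling it held for 2 of the 6 epithelial markers, against 22.6% of all genes. Epcam differed by −0.25, near the median gene. Gast, the gastrin gene, which is mainly made by G cells of the antrum, had 0 reads in both 3-mouse libraries and stood at 19.6 CPM in IQ3pos_1910A and 487 CPM in IQ3neg_1910B. Krt8, an epithelial keratin gene, stood at 866, 335, 2013 and 911 CPM in IQ3pos_1909A, IQ3neg_1909B, IQ3pos_1910A and IQ3neg_1910B (pool difference −1.40 after TMM scaling, limma adjusted p = 0.0391). The part of such epithelial differences in the pool contrasts of the members was not tested.

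Each pool contrast could be read separately in the 2 fractions. Cd74 was 4.64-fold higher in the 3-mouse library than in the 4-mouse library of IQ3pos and 5.48-fold higher in IQ3neg. H2-Ab1 was 3.66-fold and 5.76-fold higher, H2-Eb1 4.21-fold and 6.56-fold, H2-Aa 22.96-fold and 6.04-fold, and H2-DMa 17.5-fold and 2.97-fold, in the same order. B2m was 2.12-fold higher in the 4-mouse library of IQ3pos and 1.41-fold higher in that of IQ3neg. The direction of each gene was thus the same in both fractions, with different sizes.

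Ptprc, the leukocyte check, did not track class II in every library. It stood at 22.8 CPM in IQ3pos_1909A, 38.8 in IQ3neg_1909B and 14.5 in IQ3neg_1910B. In IQ3pos_1910A it stood at only 0.0824 CPM (23 reads, 95% exact Poisson interval 0.0522 to 0.124 CPM, for counting error only). Its fold range over the libraries was 470.3, against 7.04 for Cd74. Cd74 was 39.2, 35.1 and 17.1 times Ptprc in the first 3 of these libraries and 2342 times Ptprc in IQ3pos_1910A. At the near absence of Ptprc, IQ3pos_1910A still held 193 CPM of Cd74, 121 CPM of H2-Ab1 and 19.1 CPM of H2-Eb1. Ptprc is a single gene, and other leukocyte genes, given next, were not all low in that library. In these bulk samples, fewer cells of a type and less RNA per cell cannot be told apart.

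The summed level of 10 general leukocyte genes was 233, 186, 168 and 174 CPM in IQ3pos_1909A, IQ3neg_1909B, IQ3pos_1910A and IQ3neg_1910B, and in IQ3pos_1910A it was mostly Lcp1 (141 CPM), an actin-bundling protein gene. Cd53, a leukocyte tetraspanin gene, stood at 68.1, 24.7, 6.43 and 8.43 CPM. In the same order, Coro1a stood at 0.0551, 3.35, 3.79 and 0.461 CPM and Ikzf1 at 0.353, 0, 2.40 and 0.430 CPM. Both were highest in IQ3pos_1910A, whereas Cd52, Laptm5 and Cd48 were at 0.0358 CPM or below there. Of 9 genes tested, 4 (44.4%) had both 3-mouse libraries higher, against 8.76% of all genes. The opposite order held for 1 (11.1%), against 17.6% of all genes. Markers of single leukocyte types were set beside this. Of 17 listed genes of dendritic cells and macrophages, the summed level was 395 CPM in IQ3pos_1909A, 526 in IQ3neg_1909B, 97.5 in IQ3pos_1910A and 93.6 in IQ3neg_1910B. Between 10 and 13 of the 17 reached 1 CPM in each library, IQ3pos_1910A included with 10. Of the 15 tested, 9 (60%) had both 3-mouse libraries above both 4-mouse libraries, against 8.76% of all genes, and 1 had the opposite order. Lyz2, the lysozyme of myeloid cells, stood at 211, 298, 43.9 and 53.2 CPM in IQ3pos_1909A, IQ3neg_1909B, IQ3pos_1910A and IQ3neg_1910B. The macrophage genes Cd68 (33.3, 30.5, 5.13 and 3.71 CPM) and C1qc (34.0, 25.01, 7.23 and 2.23 CPM) were lower in the 4-mouse libraries as well. Fcer1g, an Fc receptor chain gene (23.4, 61.1, 2.21 and 5.87 CPM), and Mrc1, the mannose receptor gene (30.4, 33.3, 0.512 and 0.908 CPM), had the same order by pool, and both were lowest in IQ3pos_1910A. Csf1r, the macrophage colony-stimulating factor receptor gene, was higher in IQ3pos than in IQ3neg of each pool (25.8, 4.31, 15.7 and 1.59 CPM). Itgam (CD11b) was at 0 in IQ3pos_1909A and at 0.00717 CPM in IQ3pos_1910A, against 3.30 and 1.25 CPM in IQ3neg_1909B and IQ3neg_1910B. The dendritic cell gene Flt3 was at 0.0882 CPM or below throughout, and Itgax (CD11c) was 1.89 and 2.12 CPM in the 3-mouse libraries and 0.0573 and 0.00478 CPM in the 4-mouse libraries. Zbtb46 was the listed gene with the opposite order, at 0.0992, 0.235, 8.01 and 2.21 CPM in IQ3pos_1909A, IQ3neg_1909B, IQ3pos_1910A and IQ3neg_1910B. Xcr1 (0, 4.69, 0.0430 and 0.00478 CPM) and Adgre1 (0.0661, 5.65, 2.05 and 1.42 CPM) followed neither order.

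The ratio of class II to Lyz2, and to the summed dendritic cell and macrophage list, was far steadier than the ratio to Ptprc. Other genes of that list, such as Csf1r and Mrc1, did not keep step with Lyz2. Cd74 CPM was 4.24, 4.57, 4.40 and 4.66 times Lyz2 CPM in IQ3pos_1909A, IQ3neg_1909B, IQ3pos_1910A and IQ3neg_1910B, a 1.10-fold range. H2-Ab1 was 2.10, 1.99, 2.77 and 1.94 times Lyz2. H2-Aa over Lyz2 ranged 4.77-fold, and Cd74 over Cd68 2.48-fold. Against the summed dendritic cell and macrophage list, the range was 1.34-fold for Cd74, 1.13-fold for H2-Ab1 and 1.17-fold for H2-Eb1, but 5.67-fold for H2-Aa and 4.33-fold for H2-DMa. Lyz2 is the most abundant gene of that list, so the ratios to Lyz2 and to the sum are not independent. Class I behaved otherwise: B2m ranged 19.2-fold relative to Lyz2 and 1.94-fold relative to the epithelial gene Epcam, where Cd74 ranged 17.8-fold. The ratios were formed after the levels were seen and carry no test, and the part of leukocytes in the class II levels was not tested.

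**Figure D3:**
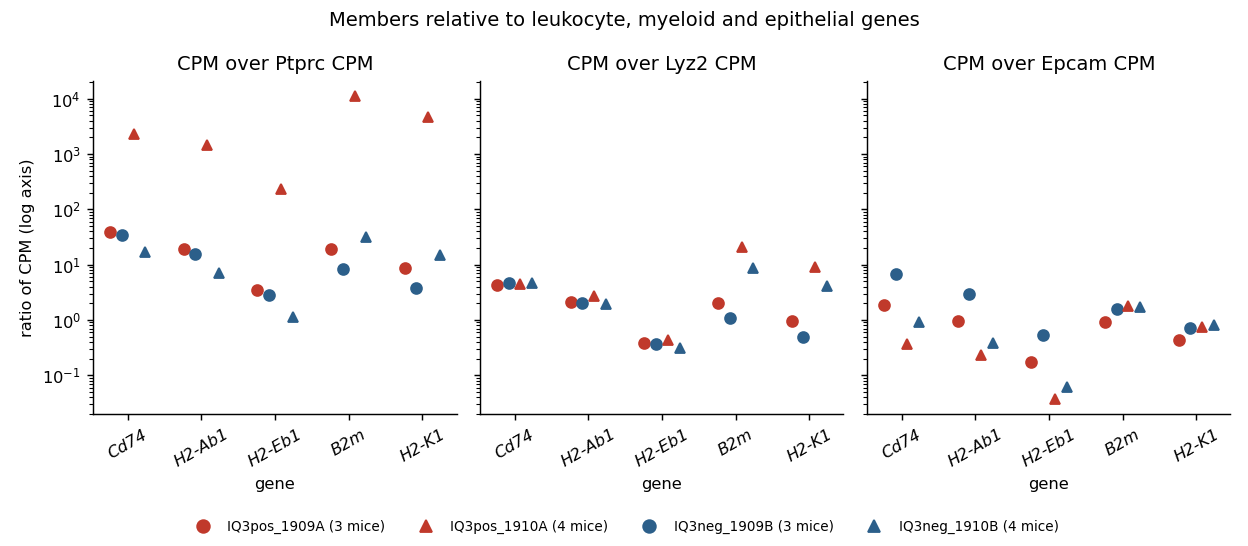
CPM of 5 members divided by the CPM of Ptprc (left), Lyz2 (middle) and Epcam (right), 1 point per library on a log axis, with colours for fractions and shapes for pools. Cd74 over Lyz2 stays between 4.24 and 4.66 in the 4 libraries, Cd74 over Ptprc reaches 2342 in IQ3pos_1910A, and B2m over Epcam stays between 0.918 and 1.78.

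B and plasma cell genes had another pattern. Igkc, an immunoglobulin light chain gene, stood at 37.7 CPM in IQ3pos_1909A, 432 in IQ3neg_1909B, 0.1003 in IQ3pos_1910A and 164 in IQ3neg_1910B, and Jchain at 13.4, 201, 0.0645 and 40.4 CPM. All 4 tested genes of this list were higher in both IQ3neg libraries, against 14.2% of all genes, and none passed limma's test (unadjusted p under 0.05 for 3). The mature B cell gene Ms4a1 was at 0.0661 CPM or below in every library. T and NK cell genes summed to 0.320 and 0.204 CPM in IQ3pos_1909A and IQ3pos_1910A and to 28.1 and 5.04 CPM in IQ3neg_1909B and IQ3neg_1910B. The mast cell gene Cpa3 stood at 36.9, 72.9, 0.0358 and 20.1 CPM in IQ3pos_1909A, IQ3neg_1909B, IQ3pos_1910A and IQ3neg_1910B. Kit, a receptor gene of mast cells, stood at 0.353, 9.22, 0.0645 and 27.4 CPM in that order. Igkc, Jchain, Cpa3 and Kit were all at or below 0.1003 CPM in IQ3pos_1910A, whereas Ighm, the immunoglobulin heavy chain gene, was at 6.76 CPM there and at 0.0441 CPM in IQ3pos_1909A.

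Genes with a profile like that of the class II members were named by distance. Of 3083 genes whose log2(CPM + 1) averaged 5 or more, the nearest to the mean centred profile of Cd74, H2-Aa, H2-Ab1 and H2-Eb1 over the 4 libraries was Lyz2 (Euclidean distance 0.264 log2 units), nearer than Cd74 itself (0.279). Next came Malat1 (0.590), Dnase1l3 (0.825), Apoe (0.961) and mt-Rnr2 (1.02). Dnase1l3, a secreted nuclease gene of macrophages and dendritic cells, stood at 107, 83.4, 21.9 and 21.0 CPM in IQ3pos_1909A, IQ3neg_1909B, IQ3pos_1910A and IQ3neg_1910B. Malat1, a nuclear long noncoding RNA (2595, 3892, 595 and 1023 CPM), and mt-Rnr2, a mitochondrial ribosomal RNA (2214, 4366, 615 and 346 CPM), are no leukocyte markers. Their levels moved with the pools as class II did, and their part in the result was not tested. The 5 genes nearest to B2m were Dpm2 (0.0562), Cdadc1 (0.110), Aplp2 (0.123), Tmem50a (0.143) and Pfkp (0.161), and H2-K1 lay 0.127 from it. With 4 points per profile such distances describe these libraries only.

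The rest of the class II pathway was mixed. Of 16 listed genes, 13 were found by name and 9 reached the filter. None passed limma's test, and 4 of the 9 (44.4%) were higher in both 3-mouse libraries, against 8.76% of all genes. Ctss, encoding the cathepsin that trims the invariant chain in antigen-presenting cells, stood at 112 CPM in IQ3pos_1909A, 110.4 in IQ3neg_1909B, 38.7 in IQ3pos_1910A and 8.72 in IQ3neg_1910B. H2-DMb1, a partner chain of H2-DMa, stood at 15.2, 15.4, 0.122 and 3.56 CPM, so both chains of H2-M were lowest in IQ3pos_1910A. The endosomal protease genes Lgmn (92.3, 79.0, 66.1 and 49.0 CPM) and Ctsl (57.3, 46.2, 34.8 and 41.3 CPM) varied less, as did Ifi30, a lysosomal thiol reductase gene (53.9, 26.7, 62.5 and 36.3 CPM). H2-Oa and H2-Eb2 were at 0.0772 CPM or below. Among 8 genes of costimulation and checkpoint, Cd86, a ligand that professional presenting cells show to T cells, stood at 36.0 and 12.7 CPM in IQ3pos_1909A and IQ3neg_1909B and at 0.0143 and 1.58 CPM in IQ3pos_1910A and IQ3neg_1910B. Cd276 was at 5.32 CPM or below in every library, and Pdcd1lg2 at 4.87 CPM or below.

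The rest of the class I pathway sided with IQ3pos in CPM only. Of 14 listed genes 13 were tested, 0 passed limma's test, and 8 (61.5%) were higher in both IQ3pos libraries, against 40.9% of all genes. After TMM scaling 3 were higher, against 25.1% of all genes. The chaperone genes Canx (4922, 1916, 3397 and 1934 CPM in IQ3pos_1909A, IQ3neg_1909B, IQ3pos_1910A and IQ3neg_1910B) and Pdia3 (2024, 784, 2500 and 1022 CPM) were the most abundant, and both serve glycoprotein folding in general. Calr, another chaperone gene of peptide loading, stood at 198, 194, 359 and 188 CPM. The immunoproteasome subunit genes, which shape class I peptides, were low: Psmb8 stood at 6.31, 4.26, 16.1 and 12.5 CPM and Psmb9 at 10.99, 0.904, 24.8 and 10.196 CPM. Both were highest in IQ3pos_1910A, like B2m. Nlrc5, the class I transactivator, was at 2.04 CPM in IQ3neg_1909B and at 0.548 CPM or below elsewhere. Of 20 other class I heavy chain genes found by name, 10 were tested and 0 passed. H2-Q2 stood at 0.121, 16.5, 0.0322 and 13.9 CPM in the same libraries (difference −3.91, limma adjusted p = 0.0947). It was the 1 gene of the 10 (10%) with both IQ3neg libraries higher, against 14.2% of all genes. Qa-1, encoded by H2-T23, stood at 34.4, 19.2, 39.5 and 44.4 CPM, and H2-T22 at 0.0441, 5.46, 31.8 and 25.05 CPM, while Mr1, which presents microbial vitamin metabolites, ran with the 3-mouse libraries within each fraction (84.2, 22.6, 24.6 and 2.81 CPM).

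Interferon pathway genes leaned to the 4-mouse libraries, the side of class I. Of 34 listed genes 27 were tested, none passed limma's test between fractions, and 12 (44.4%) were higher in both 4-mouse libraries, against 17.6% of all genes, with 3 in the opposite order. The summed level was 408 CPM in IQ3pos_1909A, 204 in IQ3neg_1909B, 999 in IQ3pos_1910A and 415 in IQ3neg_1910B. Ifngr1, the ligand-binding chain of the interferon gamma receptor, stood at 117, 48.7, 267 and 63.1 CPM, Jak1, a kinase on that receptor, at 36.7, 27.5, 122 and 49.9, and Ifngr2 at 38.4, 2.82, 62.7 and 26.5 CPM. Irf1, the factor that carries interferon gamma signals to class I and Ciita promoters, stood at 0.110, 7.79, 11.9 and 12.2 CPM. IQ3pos_1909A had the fewest of the 34 genes at or above 1 CPM, 15, against 21 in IQ3neg_1909B, 24 in IQ3pos_1910A and 26 in IQ3neg_1910B. Tap1, Tap2, Irf1 and H2-T22 were all near 0 in that library, while B2m, H2-K1 and H2-D1 were not. Other genes of the interferon list were not low in IQ3pos_1909A either. Gbp3 stood there at 23.3 CPM, Gbp7 at 21.4 and Irf7 at 23.1, against 0, 1.84 and 2.38 CPM in IQ3neg_1909B.

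**Figure D4:**
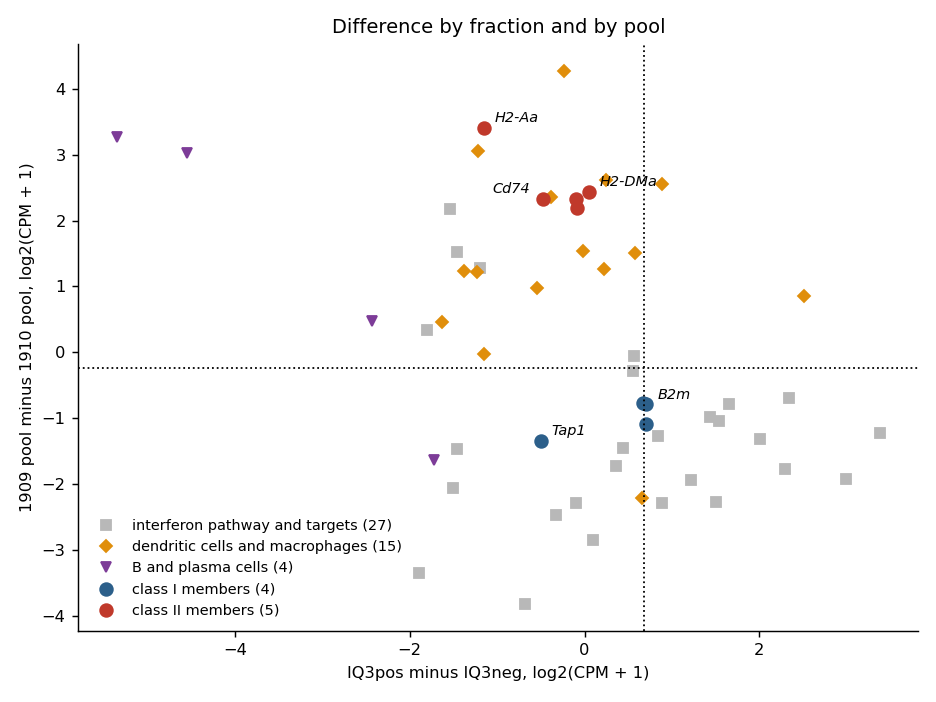
Each point is a gene, placed by its limma difference between fractions (x axis, IQ3pos minus IQ3neg) and between pools (y axis, 3-mouse minus 4-mouse libraries), both on the log2(CPM + 1) scale, with dotted lines at the medians of all genes tested (0.68 and −0.24). The 5 class II members lie at 2.19 to 3.41 on the y axis and the 4 class I members at −0.76 to −1.34. Genes of dendritic cells and macrophages spread more widely, from −2.21 to 4.27, as do interferon pathway genes, from −3.82 to 2.18. Igkc (3.27) and Jchain (3.02) of the B and plasma cell list also lie in the class II range.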

How the data were processed

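The 4 SMART-Seq2 libraries, 2 per sorted fraction, were analysed from the CPM values per gene symbol that the authors deposited. The submitters' processing notes name STAR 2.7.1a, featureCounts, Subread 2.0.0 and edgeR, with the builds GRCm38 and mm10, and give no role or order. Which annotation and strand setting were used, and how multi-mapped reads were treated, was not given in the sources used here. Since each column sums to 1000000, it holds no composition factor. All values (100%) were within 0.05 of a whole read, so reads were recovered; 1 read was worth 0.00239 to 0.0110 CPM.

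The fractions were compared by limma-trend on log2(CPM + 1), two-sided, over the 13019 genes averaging 1 CPM or more, with Benjamini-Hochberg adjustment over all of them at 0.05 (versions: limma 3.58.1, R 4.3.3). Fold changes on this scale understate those of low genes. Alternatives were other pseudocounts, filters and scalings (TMM, DESeq2 size factors), each library left out, a replicate block, and edgeR 4.0.16 and DESeq2 1.42.0 on recovered reads. The code was tested on simulated data. The p-values reflect only how far these libraries differ, and that spread may be technical.

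Members and gene lists were chosen with earlier results of these data known. The rule for naming took all members and Ptprc, the 3 most abundant genes of each pathway list, the 2 most abundant of each marker list and the 5 nearest profiles; of the T and NK cell, stromal, epithelial and gastric lineage lists mostly counts or sums are given, and other list genes were chosen after their values were seen. Of the rows, 96.8% match a GENCODE vM21 symbol (GRCm38). In 27 rows a spreadsheet date replaces the symbol, so the March genes of class II turnover are not analysed here.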

Additional observations from a re-analysis of the deposited data

How the results depend on the processing

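Between the fractions, the number of genes called higher and lower in IQ3pos, 0 and 0 in the main test, was 239 and 54 with a pseudocount of 5 CPM, 999 and 87 at a mean of at least 10 CPM, 7 and 34 with DESeq2-scaled CPM, 2 and 9 when the 20 most abundant genes were left out, 11 and 38 by edgeR and 1052 and 2038 in DESeq2. With TMM-scaled CPM 18 were lower. The replicate block gave 1216 and 125, or 293 and 201 with TMM scaling. Deviations of same-numbered libraries correlated at 0.148 across genes, and with 2 pairs the numbers are not shown to pair the libraries. With the block and TMM scaling Cd74 passed limma's threshold (−1.18, adjusted p = 0.0288), as no other member did. The class II median relative to all genes (−0.78) was −0.56 with a pseudocount of 5 CPM, −0.12 without a filter, −1.08 at a mean of at least 10 CPM, −1.25 in edgeR and −1.27 in DESeq2, and −2.42 to 0.25 with a library left out. The class I median (0.01) was 0.67 without a filter. With a library left out it went from −0.52 up to 0.36. Cd74 over a leukocyte measure ranged 137-fold with Ptprc and 6.34-fold with the general leukocyte list.

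Signs of single members turned as follows; the causes were not tested. With a library left out, Cd74 went from −1.71 to 0.74, H2-Aa from −3.29 to 0.99, H2-Ab1 from −1.35 to 1.17, H2-Eb1 from −1.42 to 1.22, H2-DMa from −1.69 to 1.80 and Tap1 from −1.76 to 0.77. H2-DMa was −0.09 with a pseudocount of 0.1 CPM, −0.56 with TMM-scaled CPM (with and without the block), −0.62 with DESeq2-scaled CPM, −0.88 without the 20 most abundant genes, −0.02 in edgeR and −0.06 in DESeq2. With DESeq2-scaled CPM, with the 20 most abundant genes left out, and by edgeR, in this order, B2m was −0.09, −0.28 and −0.03, H2-K1 −0.13, −0.32 and −0.10, and H2-D1 −0.10, −0.29 and −0.06. H2-K1 was −0.03 with TMM-scaled CPM (with and without the block) and −0.06 in DESeq2, and H2-D1 −0.02 in DESeq2. The pool differences of the 9 members tested kept their direction with TMM scaling. Ciita in IQ3neg and Tap1 in IQ3pos_1909A rest on 1 to 3 reads, and their read intervals cover counting error only.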
